A study of Homo sapiens with 9 samples.

Results

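The plasminogen activator system was followed in MDA-MB-231 breast cancer cells through 7 genes, namely both plasminogen activators PLAU and PLAT, the urokinase receptor PLAUR, the inhibitory serpins SERPINE2, SERPINB2 and SERPINI1, and the adhesion molecule L1CAM. The members were the rows of the deposited gene count table that carry these 7 symbols, out of 58884 genes, and every member was found and passed the filter on low counts. MDA-MB-231 is an established claudin-low breast cancer cell line. The study compared the parental line (Par) with its lung metastatic sub-population LM2 and its brain metastatic sub-population BrM2, both obtained by selection in mice, by RNA sequencing of 3 libraries per line and 9 in all. None of the groups carried an engineered allele or a treatment according to the labels. Each replicate was grown for 3 days as a monolayer in serum-containing medium, so that no host cell of lung or brain was present, and each sub-population is 1 derivative of a single parental line. The replicates of a line were harvested at different passages, so that p-values measure the spread between passages of 1 line. In bulk RNA, fewer expressing cells and less RNA per cell cannot be told apart.

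Plasminogen is a circulating zymogen, and urokinase (PLAU) and tissue plasminogen activator (PLAT) cut it into the broad protease plasmin. The urokinase receptor (PLAUR) is a lipid-anchored surface protein that holds urokinase at the cell membrane. Serpins stop the activators by offering a bait bond in an exposed reactive centre loop, and the protease that cuts it is trapped in a covalent complex. SERPINB2 (PAI-2) acts on urokinase, SERPINE2 (protease nexin-1) acts on thrombin, urokinase and plasmin, and SERPINI1 (neuroserpin) acts on tissue plasminogen activator and is known best from neurons. In the brain, where reactive cells supply plasminogen activators, plasmin can cut L1CAM, the molecule with which cancer cells adhere along capillaries. The comparisons ask which of these genes were expressed differently once cells had been selected for colonizing lung or brain.

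The bait region largely sets which proteases a serpin traps, and the loops of SERPINE2 and SERPINI1 are shown here to be set side by side. The coding bases come from the GENCODE canonical transcripts, 69 bases or 23 codons per gene, starting at the hinge of the loop. Capitals mark the codons on both sides of the presumed bait bond, taken as the first arginine codon followed by a methionine, serine or threonine codon beyond the hinge.
SERPINE2: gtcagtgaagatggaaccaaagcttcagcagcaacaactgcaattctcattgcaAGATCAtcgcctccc
SERPINI1: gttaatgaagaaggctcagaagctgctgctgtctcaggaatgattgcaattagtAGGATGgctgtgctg
The bond follows codon 364 of 397 in SERPINE2 and codon 362 of 410 in SERPINI1. The arginine codon is written AGA in SERPINE2 and AGG in SERPINI1, and the next codon is TCA in SERPINE2 and ATG in SERPINI1. The loop is the same length from hinge to bond in both genes, while their levels differed widely.

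The promoters of the members other than PLAT were searched for motifs. Those of SERPINB2 and PLAUR held the letters of an AP-1 element and those of the others did not, and both are shown because they hold it. SERPINI1, whose promoter held no such letters, shared with these genes the lowest mean in Par and the highest in BrM2. The sequences are from RefSeq, build GRCh38.p14, from 250 bases before to 50 bases after the gene start. They lie at chr18:63887455-63887754 on the plus strand for SERPINB2 and at chr19:43670120-43670419 on the minus strand for PLAUR. Capitals mark TGANTCA, the AP-1 letters, and TATAAA, the TATA box, both searched on both strands.
SERPINB2: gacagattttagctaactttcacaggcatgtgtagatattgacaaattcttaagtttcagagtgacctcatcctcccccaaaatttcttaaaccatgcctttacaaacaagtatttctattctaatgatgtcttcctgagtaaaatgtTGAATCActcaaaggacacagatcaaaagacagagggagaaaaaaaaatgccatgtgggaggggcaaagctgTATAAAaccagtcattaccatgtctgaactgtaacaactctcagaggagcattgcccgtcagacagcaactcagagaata
PLAUR: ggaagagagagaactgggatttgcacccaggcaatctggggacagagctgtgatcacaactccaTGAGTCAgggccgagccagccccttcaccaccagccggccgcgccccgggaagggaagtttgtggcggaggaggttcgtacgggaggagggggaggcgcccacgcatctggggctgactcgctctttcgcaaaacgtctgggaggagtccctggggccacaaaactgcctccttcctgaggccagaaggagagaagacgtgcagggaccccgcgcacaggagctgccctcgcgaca
The SERPINB2 promoter held TGAATCA with its first base 102 bases upstream of the start and TATAAA at 30 bases upstream. The PLAUR promoter held TGAGTCA at 186 bases upstream and no TATAAA, and neither promoter held the CCAAT letters or a GC box (GGGCGG). Among 35116 promoters of the same length, 7.71% held TGANTCA, 11.5% TATAAA, 34.6% CCAAT and 45% GGGCGG. The marked letters did not overlap each other. These matches describe the letters in the window, and binding was not measured.

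Expression is given in CPM, the counts of a gene relative to the library size after scaling with the TMM factors of edgeR. Libraries held between 14371858 and 24511786 counts on genes, the lowest being BrM2 replicate 1. VIM and CD44 had at least 499 CPM in each library, while ZEB1, also a mesenchymal marker, was between 18.2 and 139 CPM. ERBB2 was between 62.7 and 143 CPM, ESR1 did not pass 16 counts and PGR did not pass 4. The summed level of 6 markers of immune, endothelial, glial and lung cells was between 8.96 and 24.1 CPM, carried by GFAP and PECAM1. The lung marker SFTPC did not pass 1 count in any library, and neither CD68 nor PTPRC passed 6 counts. Of the epithelial markers, KRT8 and KRT18 were high, EPCAM was between 2.73 and 7.94 CPM and CDH1 between 0.144 and 1.94 CPM. KRT19 was at 206 ± 41.9 CPM in Par, 45.5 ± 23.8 in LM2 and 191 ± 89.8 in BrM2, and VIM at 725 ± 137, 1537 ± 293 and 1502 ± 291 CPM. The part of these differences in the results was not tested. Over all genes, replicate 1 of each line stood apart from replicates 2 and 3 and libraries of the same number deviated together, so that values from a fit that also has a term for the replicate (the replicate block) are given wherever they change the call of a member.

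**Figure D1:**
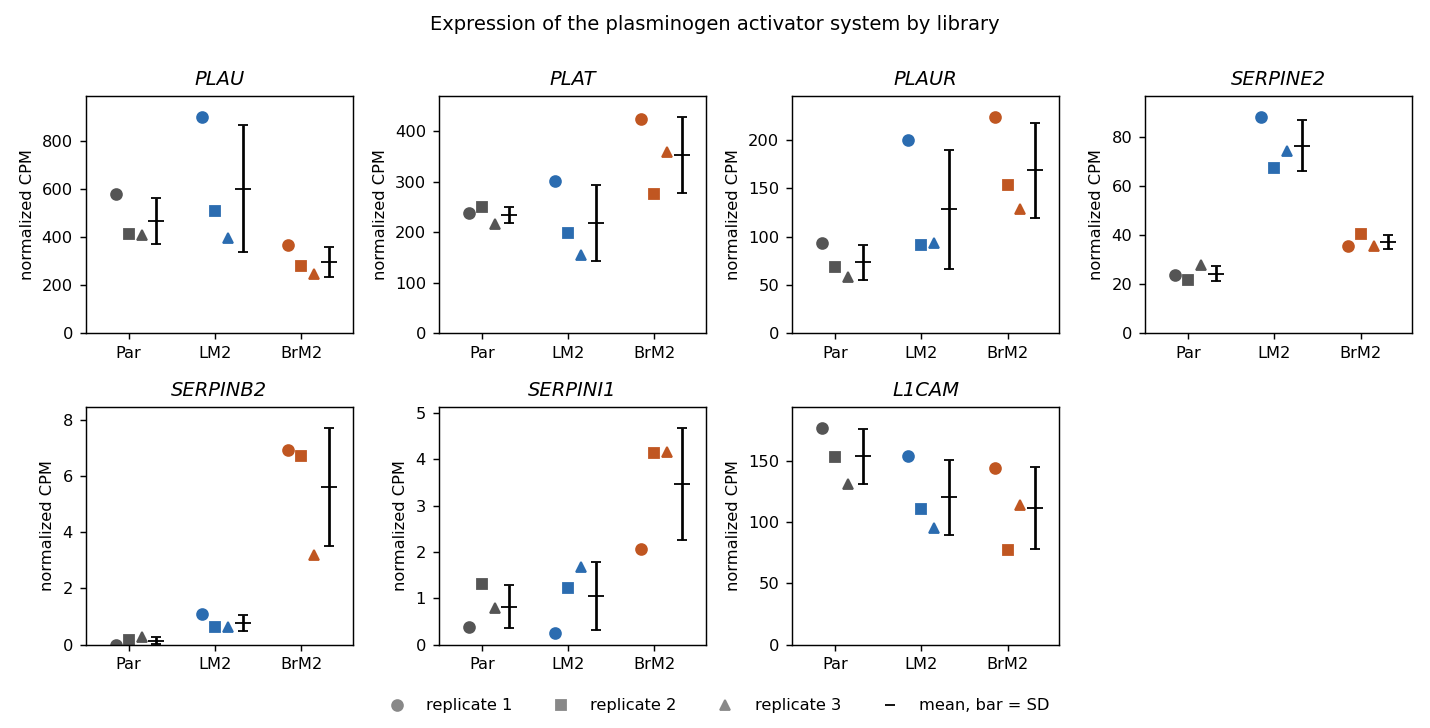
Normalized CPM (linear axes from 0, a separate scale per gene) of the 7 members in the 9 libraries, with one symbol per replicate and the mean with its SD beside the points, n = 3 per line. SERPINE2 was highest in the 3 LM2 libraries, SERPINB2 and SERPINI1 were highest in the 3 BrM2 libraries, and PLAU was lowest in the 3 BrM2 libraries.

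When the lines alone were modelled, the only members called were serpins. In LM2, SERPINE2 was 3.14-fold higher than in Par. In BrM2, SERPINB2 was 36.2-fold higher than in Par, from a level of less than 0.3 CPM in each Par library, and the size of this difference moved with single libraries (log2 fold change 5.18, and between 4.67 and 6.11 without 1 library). Between the metastatic sub-populations, SERPINB2 was 7.28-fold higher in BrM2 than in LM2, and SERPINE2 was lower, at 0.486 of its LM2 level. SERPINB2 passed the filter on low counts only through its BrM2 libraries, so the sign of both its calls follows in part from the filter. The activators, the receptor, SERPINI1 and L1CAM did not pass the threshold of adjusted p 0.05 in any comparison when the lines alone were modelled (edgeR quasi-likelihood test, 2-sided, Benjamini-Hochberg over 13001 genes). With the replicate block all 7 members were called in BrM2 against Par, beside 42.7% of all genes tested. The lowest adjusted p of the members in that fit were those of SERPINB2 (3.0e-05) and PLAUR (6.7e-05).

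In LM2 against Par, 1 of the 7 members was called, SERPINE2, which was higher, against 8.65% of the genes tested (4.17% higher and 4.48% lower). With the replicate block 3 members were called, all higher, namely PLAUR, SERPINE2 and SERPINB2, against 34.5% of the genes. The libraries did not overlap in 2 members, SERPINE2 and SERPINB2, against 25.1%. In BrM2 against Par, 1 member was called, SERPINB2, against 13.2% (6.25% higher and 6.99% lower), and with the block all 7 were called, 5 higher and 2 lower, against 42.7%. Libraries did not overlap in 6 of the 7, against 31.3%. In BrM2 against LM2, 1 member was higher and 1 lower, against 8.08% (4.08% higher and 4.0% lower). With the block 6 members were called, 4 higher and 2 lower, against 37.5%, and 4 did not overlap, against 23.1%. SERPINB2 and SERPINI1 passed the filter only through their BrM2 libraries, so their part in these counts follows in part from the filter. The median log2 fold change of the members was 0.37, 0.61 and 0.39 in the same order, beside 0.01, -0.02 and -0.03 over all genes tested. The comparisons share libraries, so their counts do not add up independently.

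**Figure D2:**
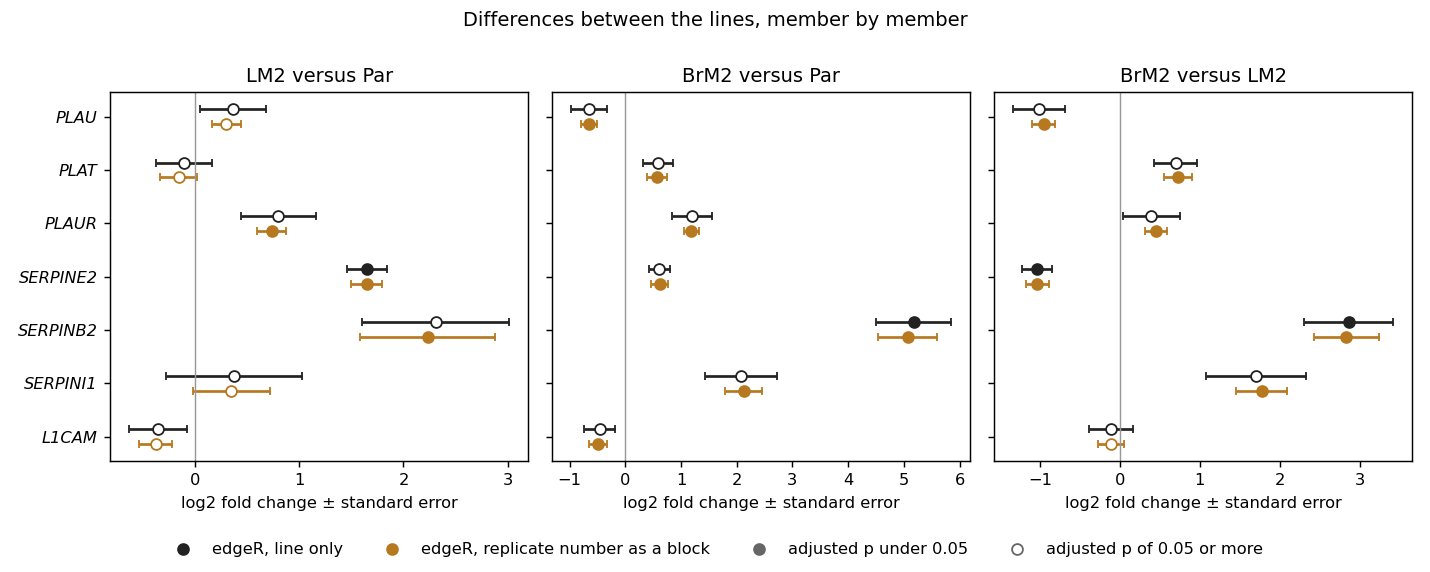
Log2 fold change (points) and standard error (bars) of the 7 members in each comparison of the lines, from edgeR with line only (black) or with the replicate block (ochre), where filled points had an adjusted p under 0.05. Line by line the estimates of both models lie close together, while the standard errors are smaller with the block for every gene.

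The urokinase gene PLAU, the secreted activator of plasminogen, was the most abundant member per transcript length in Par and LM2. PLAU was at 579, 413 and 411 CPM in Par, 901, 509.6 and 396 CPM in LM2, and 369, 280.1 and 246 CPM in BrM2 for replicates 1, 2 and 3. The 3 BrM2 libraries lay below every Par and LM2 library, while LM2 and Par overlapped. The mean was 468 ± 96.3 CPM in Par, 602 ± 265 in LM2 and 298 ± 63.6 in BrM2 (SD, n = 3). The log2 fold change of PLAU in BrM2 was -0.65 (SE 0.32) against Par and -1.01 (SE 0.32) against LM2, with edgeR adjusted p of 0.255 and 0.102. With the block, PLAU was lower in BrM2, with adjusted p of 0.0033 and 0.00046. Within replicate numbers, the difference from Par was between -0.74 and -0.56 on the log2 scale, so that all 3 pairs moved alike. In LM2 against Par the log2 fold change was 0.36 (SE 0.32, adjusted p 0.636) and the 3 pairs did not share a sign.

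PLAT, the tissue-type activator that works best on fibrin, had its highest mean in BrM2 (352 ± 74.8 CPM), beside 234 ± 16.4 in Par and 218 ± 75.1 in LM2. PLAT was at 237, 249 and 216 CPM in Par, 300.4, 198 and 154 CPM in LM2, and 424, 275 and 359 CPM in BrM2. All 3 BrM2 libraries exceeded all Par libraries, whereas LM2 replicate 1 was above BrM2 replicate 2. In BrM2 the log2 fold change was 0.59 (SE 0.27) against Par and 0.70 (SE 0.27) against LM2, with edgeR adjusted p of 0.210 and 0.174, and it was called higher in both with the block (adjusted p of 0.024 and 0.009) and against LM2 without LM2 replicate 1 (adjusted p 0.031). LM2 and Par differed by -0.11 (SE 0.27, adjusted p 0.905), and this value turned to 0.09 without LM2 replicate 3.

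PLAUR, the urokinase receptor, had means of 73.5 ± 18.2 CPM in Par, 128 ± 61.9 in LM2 and 168 ± 49.3 in BrM2 (SD, n = 3). PLAUR was at 93.8, 68.2 and 58.5 CPM in Par, 199.5, 91.7 and 93.1 CPM in LM2, and 223, 153 and 128.5 CPM in BrM2. The BrM2 libraries lay above all Par libraries and overlapped with LM2, where replicate 1 was well above the other replicates. The log2 fold change in BrM2 against Par was 1.19 (SE 0.36, edgeR adjusted p 0.066), and was called without LM2 replicate 1 (adjusted p 0.016) and with the block (adjusted p 6.7e-05). In LM2 against Par it was 0.80 (SE 0.36, adjusted p 0.260), called with the block (adjusted p 0.0021). BrM2 and LM2 differed by 0.39 (SE 0.36, adjusted p 0.628; 0.025 with the block).

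The secreted nexin SERPINE2 was highest in LM2, with 76.5 ± 10.6 CPM, beside 24.4 ± 3.08 in Par and 37.1 ± 2.94 in BrM2. SERPINE2 was at 23.8, 21.6 and 27.7 CPM in Par, 88.0, 67.3 and 74.1 CPM in LM2, and 35.4, 40.5 and 35.5 CPM in BrM2. The groups were fully separated in the order Par, BrM2, LM2, and no library of one line reached into another. Against Par, the log2 fold change in LM2 was 1.65 (SE 0.19), with an edgeR adjusted p of 0.000996, and it remained called whichever 1 of the 9 libraries was omitted. In BrM2 it was 0.61 (SE 0.19, adjusted p 0.068), which was called without LM2 replicate 1 (adjusted p 0.045) and with the block (adjusted p 0.0064). SERPINE2 was lower in BrM2 than in LM2 by -1.04 on the log2 scale (SE 0.19, adjusted p 0.0099), a call that was lost without BrM2 replicate 3 (-1.01, adjusted p 0.061). The difference from Par was between 1.42 and 1.88 within the 3 replicate numbers in LM2 and between 0.36 and 0.91 in BrM2.

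SERPINB2, an inhibitor of urokinase that is largely kept inside cells, had the largest fold difference among the members and the lowest level in Par and LM2. The Par libraries held 0, 3 and 7 counts, those of LM2 22, 15 and 16, and those of BrM2 94, 152 and 67. On the CPM scale the mean was 0.140 ± 0.138 in Par, 0.772 ± 0.277 in LM2 and 5.62 ± 2.09 in BrM2 (SD, n = 3). The lines were again fully separated, with Par lowest and BrM2 highest. The gene passed the filter only through its BrM2 libraries, so its sign in BrM2 against Par and LM2 follows in part from the filter. The log2 fold change of SERPINB2 in BrM2 against Par was 5.18 (SE 0.68, edgeR adjusted p 0.0013), and the call was kept in all 9 fits without 1 library, the largest value being 6.11 without Par replicate 3. In BrM2 against LM2 it was 2.86 (SE 0.56, adjusted p 0.014). That call was lost without LM2 replicate 2 (2.72, adjusted p 0.082), LM2 replicate 3 (2.72, adjusted p 0.0666) or BrM2 replicate 2 (2.695, adjusted p 0.054). In LM2 against Par it was 2.31 (SE 0.70, adjusted p 0.084; 0.021 with the block), and 3.25 without Par replicate 3. A Par library with 0 counts allows up to 0.158 CPM at its depth, counting error only.

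SERPINI1, the inhibitor known from neurons, was also scarce, and most of its counts were in BrM2. The Par libraries held 7, 27 and 20 counts, those of LM2 5, 30 and 44, and those of BrM2 28, 94 and 87. In CPM these were 0.368, 1.31 and 0.786 in Par, 0.248, 1.22 and 1.69 in LM2, and 2.07, 4.15 and 4.17 in BrM2. The BrM2 libraries lay above all libraries of the other lines, and Par and LM2 overlapped. Replicate 1 was the lowest library in each line, by between -2.16 and -0.98 on the log2 scale against the mean of the other replicates. For SERPINI1 the log2 fold change was 2.07 (SE 0.64) in BrM2 against Par and 1.70 (SE 0.63) against LM2, with edgeR adjusted p of 0.070 and 0.157. The first was called without LM2 replicate 1 (adjusted p 0.018). With the block both were called higher (2.12 and 1.77, adjusted p of 0.00056 and 0.0018). SERPINI1 passed the filter only through BrM2 libraries, so its sign against Par and LM2 follows in part from the filter. Within replicate numbers the difference between BrM2 and Par was between 1.60 and 2.28. LM2 and Par differed by 0.37 (SE 0.66, adjusted p 0.854), and this value was -0.13 without LM2 replicate 3.

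L1CAM, the adhesion molecule that plasmin can cut, was well expressed in all lines and had its highest mean in Par. L1CAM was at 176, 153 and 131 CPM in Par, 154, 111 and 95.4 CPM in LM2, and 144, 76.8 and 113 CPM in BrM2. The lines overlapped in every comparison. For L1CAM the log2 fold change was -0.46 (SE 0.28, edgeR adjusted p 0.364) in BrM2 against Par and -0.35 (SE 0.28, adjusted p 0.578) in LM2 against Par. With the block, L1CAM was lower in BrM2 than in Par (-0.49, adjusted p 0.029), while LM2 against Par did not pass the threshold (adjusted p 0.090). BrM2 and LM2 differed by -0.11 (SE 0.28, adjusted p 0.886). The RNA level does not measure the cleavage of the protein.

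Levels of different genes were compared per kilobase of the canonical transcript. In Par the order was PLAU (199.6 ± 41.1 CPM per kb), PLAT (76.5 ± 5.36), PLAUR (53.7 ± 13.3), L1CAM (29.9 ± 4.43), SERPINE2 (10.9 ± 1.38), SERPINI1 (0.513 ± 0.294) and SERPINB2 (0.0735 ± 0.0722). In BrM2, PLAU (127 ± 27.2 CPM per kb), PLAUR (123 ± 36.0) and PLAT (115 ± 24.4) stood within their spread of each other, followed by L1CAM (21.7 ± 6.55), SERPINE2 (16.7 ± 1.32), SERPINB2 (2.95 ± 1.096) and SERPINI1 (2.16 ± 0.755). L1CAM and SERPINE2 in BrM2, and SERPINB2 and SERPINI1, did not differ beyond their SD. In LM2, SERPINE2 reached 34.4 ± 4.74 CPM per kb and passed L1CAM (23.4 ± 5.94).

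Within a library, ratios remove what is shared by the genes. The ratio of PLAU to PLAT, both per kb, was 3.19, 2.17 and 2.48 in Par, 3.92, 3.36 and 3.36 in LM2, and 1.14, 1.33 and 0.895 in BrM2. The BrM2 libraries were thus the lowest and LM2 the highest, with no overlap between lines. The ratio of PLAU to PLAUR was 3.60, 3.54 and 4.10 in Par, 2.64, 3.25 and 2.48 in LM2, and 0.964, 1.07 and 1.12 in BrM2, so that urokinase and its receptor were at a like level per kb in BrM2. Of the summed level of the 3 member serpins per kb, SERPINB2 and SERPINI1 together held 2.10%, 8.43% and 4.86% in Par, 1.81%, 3.47% and 3.97% in LM2, and 23.7%, 25.1% and 21.2% in BrM2, and SERPINE2 held the rest. The BrM2 libraries were above all the others, while Par and LM2 overlapped. These ratios are descriptions, and no test was made of them.

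**Figure D3:**
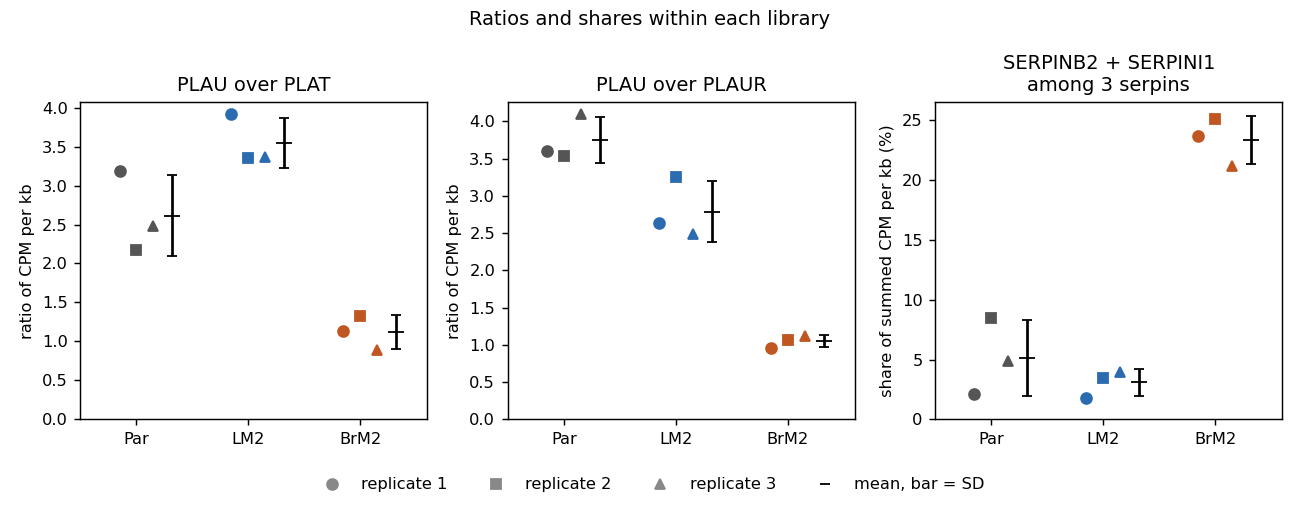
Ratio of CPM per kb of PLAU to PLAT and to PLAUR, and the percent of the summed CPM per kb of SERPINE2, SERPINB2 and SERPINI1 taken by the last 2 together, in the 9 libraries (symbols are replicates, bars the mean ± SD, n = 3). In BrM2 both PLAU ratios lie between 0.895 and 1.33, below all Par and LM2 libraries.

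Replicate 1 was compared with the mean of replicates 2 and 3 of its line. PLAU was higher in replicate 1 by 0.49, 1.004 and 0.49 on the log2 scale in Par, LM2 and BrM2, PLAUR by 0.57, 1.11 and 0.67, and L1CAM by 0.32, 0.59 and 0.62. SERPINI1 differed by -1.27, -2.16 and -0.98 in the same order, as the plot of expression by library shows. SERPINE2 differed by -0.04, 0.32 and -0.10 and PLAT by 0.03, 0.78 and 0.43. SERPINB2, from few counts, differed by -1.67, 0.75 and 0.57, so that its lines did not share a sign. What made replicate 1 differ was not tested.

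The genes whose pattern across the 9 libraries was most like each member were found by Pearson's r of log2 CPM after centring each replicate number, among genes with a mean of at least 50 counts. For SERPINE2 they were INPP5B (r = 0.997) and RAET1E (r = 0.995), the latter at 1.30 ± 0.264 CPM in Par, 4.35 ± 0.115 in LM2 and 2.03 ± 0.322 in BrM2. For SERPINB2 they were ST6GALNAC5 (r = 0.992) and SDCCAG8 (r = 0.986). ST6GALNAC5, a sialyltransferase, was at 1.45 ± 0.842, 3.12 ± 0.743 and 10.9 ± 1.87 CPM in Par, LM2 and BrM2. For SERPINI1 they were ZCCHC14 (r = 0.993) and GATA2 (r = 0.989), and for PLAUR TENM3-AS1 (r = 0.994) and ITPRIP (r = 0.994). For PLAU they were C2orf27A (r = 0.996) and ADH5 (r = 0.989), for PLAT CHMP1A (r = 0.992) and TMEM255B (r = 0.985), and for L1CAM R3HDM4 (r = 0.995) and SNAP47 (r = 0.986). The 9 points share only 3 lines, and the highest r among so many genes is high by the choice itself.

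Other genes around plasmin were taken from fixed lists, and their counts are read beside the share called over all genes tested, which was 8.65% in LM2 against Par, 13.2% in BrM2 against Par and 8.08% in BrM2 against LM2, and 34.5%, 42.7% and 37.5% with the block. Plasminogen itself (PLG) had 0 counts in every library, so the substrate of both activators was not made at a level detectable here. Of 12 genes for plasminogen, its surface receptors and uptake, 6 passed the filter, and 1 was lower in BrM2 than in Par and 1 lower in BrM2 than in LM2, beside 13.2% and 8.08% over all genes. Their median log2 fold change was 0.28 in LM2 and -0.02 in BrM2 against Par, and with the block 2 were higher and 1 lower in LM2 against Par, 1 lower in BrM2 against Par and 2 lower in BrM2 against LM2. S100A10, a plasminogen receptor subunit, was at 348 ± 101 CPM in Par, 266 ± 111 in LM2 and 153 ± 38.4 in BrM2 and was called lower in BrM2 than in Par by -1.18 (SE 0.34, edgeR adjusted p 0.04997), a call kept in 2 of 9 fits without 1 library. LRP1, which takes up complexes of serpins with their proteases, was lower in BrM2 (63.7 ± 21.9 CPM) than in LM2 (147 ± 12.9), by -1.21 (SE 0.25, adjusted p 0.020), kept in 5 of 9 such fits. With the block LRP1 was also called higher in LM2 than in Par (0.85, adjusted p 0.0044), and S100A10 lower in LM2 than in Par (-0.42, adjusted p 0.016) and in BrM2 than in LM2 (-0.75, adjusted p 0.00066).

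Of 31 other serpins, 7 passed the filter. In BrM2 against Par 1 was higher and 4 lower, in LM2 against Par 1 was higher and 2 lower, and in BrM2 against LM2, 2 were lower, beside 13.2%, 8.65% and 8.08% over all genes. Their median log2 fold change was -0.50 in LM2 against Par, -0.81 in BrM2 against Par and -0.62 in BrM2 against LM2, and with the block the calls in LM2 against Par, BrM2 against Par and BrM2 against LM2 were 2 higher and 4 lower, 1 and 5, and 1 and 5, beside 34.5%, 42.7% and 37.5% over all genes. SERPINA1, an inhibitor of neutrophil elastase, fell furthest. It was at 63.4, 41.6 and 48.0 CPM in Par, 13.0, 8.20 and 5.25 CPM in LM2, and 0.960, 0.442 and 0.527 CPM in BrM2, so that no lines overlapped. Against Par, its log2 fold change was -2.53 (SE 0.38, edgeR adjusted p 0.0040) in LM2 and -6.35 (SE 0.48, adjusted p 0.00011) in BrM2, and both calls were kept in all 9 fits without 1 library. SERPINA1 passed the filter only through Par and LM2 libraries, so its sign in BrM2 follows in part from the filter. SERPINB9, the intracellular inhibitor of granzyme B, was at 102 ± 10.9, 62.7 ± 5.68 and 30.9 ± 3.16 CPM in Par, LM2 and BrM2 and was called lower in all 3 comparisons, by -0.70 in LM2 and -1.72 in BrM2 against Par. SERPINB8, a furin inhibitor, was called higher in both sub-populations, at 14.9 ± 0.696, 26.7 ± 0.457 and 40.4 ± 8.87 CPM. SERPINB1 and the collagen chaperone SERPINH1 were lower in BrM2 than in Par, by -0.81 and -1.14. The calls of SERPINB9 and SERPINB8 in LM2 against Par were kept in 1 and 3 of 9 fits without 1 library. Those of SERPINB1 and SERPINH1 in BrM2 against Par were kept in 4 of 9 each. With the block SERPINB8 was also higher in BrM2 than in LM2 (0.58, adjusted p 0.0096), SERPINB1 and SERPINH1 lower in LM2 than in Par (-0.57 and -0.54, adjusted p of 0.0051 and 0.0054), and SERPINH1 lower in BrM2 than in LM2 (-0.62, adjusted p 0.0025).

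**Figure D4:**
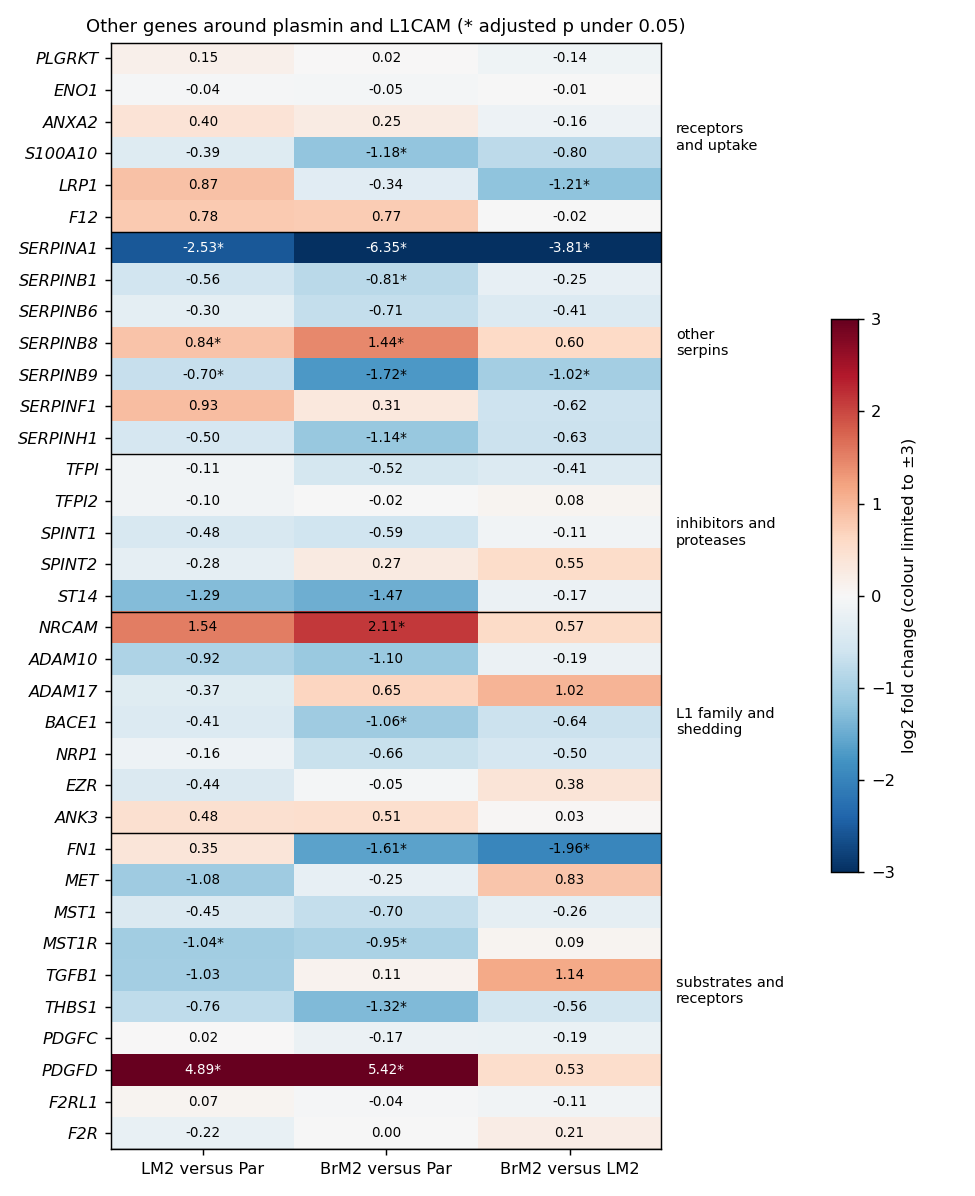
Log2 fold change (numbers and colour, limited to ±3) of the genes of the fixed lists that passed the filter, in rows, for the comparisons of the lines, in columns. In BrM2 against Par, SERPINA1 is at -6.35 and PDGFD at 5.42 on the log2 scale, and asterisks mark an adjusted p under 0.05.

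None of the 5 other protease inhibitors and surface serine proteases that passed the filter was called by edgeR with line only in any comparison. With the block 1 was called in LM2 against Par, 2 in BrM2 against Par and 2 in BrM2 against LM2. Over all genes tested the block called 34.5%, 42.7% and 37.5% in the same order. Of 9 genes of the L1 family, its partners and its shedding enzymes, 7 passed. Both of the calls were in BrM2 against Par, beside 13.2% over all genes. The median log2 fold change of the 7 genes there was -0.05. With the block 1 was higher and 4 lower in LM2 against Par, 2 and 3 in BrM2 against Par, and 2 and 2 in BrM2 against LM2, beside 34.5%, 42.7% and 37.5% over all genes. NRCAM, an adhesion molecule of the L1 family, was higher, at 6.10 ± 2.73 against 1.40 ± 0.733 CPM, by 2.11 (SE 0.49, edgeR adjusted p 0.023), and BACE1, a membrane-bound secretase, was lower, by -1.06 (SE 0.19, adjusted p 0.0064). NRCAM passed the filter only through LM2 and BrM2 libraries, so its sign against Par follows in part from the filter. With the block NRCAM was called higher in LM2 too, against Par (1.57, adjusted p 0.0010), and BACE1 lower in LM2 than in Par (-0.41, adjusted p 0.020) and in BrM2 than in LM2 (-0.65, adjusted p 0.0019). The shedding enzymes ADAM10 and ADAM17 were called only with the block. ADAM10 was lower in LM2 and BrM2 than in Par (-0.97 and -1.16, adjusted p of 0.00028 and 6.4e-05). ADAM17 was lower in LM2 than in Par (-0.39, adjusted p 0.023) and higher in BrM2 than in Par and LM2 (0.65 and 1.04, adjusted p of 0.0011 and 8.1e-05).

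Of 12 substrates and receptors, 10 passed, with 1 higher and 3 lower in BrM2 against Par, 1 and 1 in LM2 against Par, and 1 lower in BrM2 against LM2, beside 13.2%, 8.65% and 8.08% over all genes. Their median log2 fold change was -0.33 in LM2 and -0.21 in BrM2 against Par, and with the block 2 were higher and 4 lower in LM2 against Par, 1 and 4 in BrM2 against Par and 2 and 2 in BrM2 against LM2, beside 34.5%, 42.7% and 37.5% over all genes. Fibronectin (FN1), which plasmin degrades, was at 886 ± 140 CPM in Par, 1131 ± 19.4 in LM2 and 290.2 ± 16.7 in BrM2, and was lower in BrM2 than in both other lines, by -1.61 and -1.96 (SE 0.17 each, adjusted p of 0.00041 and 0.00027). With the block FN1 was called higher in LM2 against Par (0.36, adjusted p 0.047). THBS1 was lower in BrM2 than in Par by -1.32 and, with the block, lower in LM2 than in Par (-0.75, adjusted p 0.0017) and in BrM2 than in LM2 (-0.57, adjusted p 0.0074), and MST1R was lower by -1.04 in LM2 and -0.95 in BrM2. PDGFD, a growth factor that needs proteolytic activation, held 0, 1 and 5 counts in Par against a range of 29 to 98 in LM2 and 27 to 114 in BrM2, and was called higher in both against Par (4.89 and 5.42, adjusted p of 0.0050 and 0.0021). Without Par replicate 3 these values were 6.51 and 7.04. PDGFD passed the filter only through LM2 and BrM2 libraries, so the sign of both calls follows in part from the filter. FN1, PDGFD, THBS1 and BACE1 kept the calls that they had with line only in all 9 fits without 1 library. MST1R kept both of its calls in 6 of 9 and NRCAM its call in BrM2 against Par in 5 of 9. The calls made only with the block are not part of these counts.

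The members lie on separate chromosomes. In GRCh38.p14, PLAU is at chromosome 10 from 73908832 to 73917494, PLAT at chromosome 8 from 42174718 to 42207565, PLAUR at chromosome 19 from 43646095 to 43670169, SERPINE2 at chromosome 2 from 223975045 to 224039286, SERPINB2 at chromosome 18 from 63887705 to 63903888, SERPINI1 at chromosome 3 from 167735721 to 167825569, and L1CAM at chromosome X from 153861514 to 153886173. The counts cover the whole gene as annotated. On the opposite strand of PLAU lies C10orf55, with between 8 and 49 counts per library, and on that of L1CAM lies L1CAM-AS1, with between 0 and 12. The strand used in counting is not given in the sources used here, and such reads could be shared, but the partners held few counts beside PLAU (at least 4997) and L1CAM (at least 1739). A gene absent from the count table overlaps SERPINB2 on the same strand, and another overlaps SERPINI1 on the opposite strand. Reads from these could not be checked, and both members held few counts. The start of SERPINI1 is 829 bases from PDCD10, a gene with between 424 and 1466 counts.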

How the data were processed

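RNA was measured in 9 libraries, 3 each of Par, LM2 and BrM2, grouped by the labels. Per the labels and the study's methods, stranded mRNA libraries were sequenced as paired ends, aligned to hg38 and counted per gene with STAR 2.7.0. The authors deposited raw counts per gene, which were used as given. They also deposited log2 fold changes and p-values from DESeq2, which were not used. The table had 58887 rows, of which 3 repeated an identifier with identical counts and were kept once, which left 58884 genes.

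Members and lists were chosen with earlier results of these data known. Genes were kept, after HTSFilter, where the largest normalized count passed 49.24 (100 thresholds between 1 and 200, loess span 0.3), which left 13001. The 2-sided edgeR 4.0.16 quasi-likelihood test was fitted with TMM factors to all 9 libraries with line as the term (R 4.3.3, limma 3.58.1), p-values were adjusted by Benjamini-Hochberg over those 13001 genes, and the threshold was 0.05. Log2 CPM used a prior count of 2. The test was tried on simulated data with no replicate effect and a lower dispersion than the fit with line only. That trial therefore does not show how the test behaves at the spread of these data. Alternatives were DESeq2 1.42.0, RLE factors, other filters, the 6 libraries compared, libraries left out, and the replicate number as a block. Deviations of same-numbered libraries from their line means correlated between 0.23 and 0.90 over every pair of lines and replicate number, so the numbers were taken to pair the libraries. This rests on the values, since the labels give only a number, and libraries of different numbers were not correlated as a baseline. The common dispersion was 0.11 with line only and 0.0207 with the block.

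Genes named are the 7 members, up to 5 called genes per list, and the 2 genes most alike to each member. ADAM10 and ADAM17 are named beside BACE1 outside this rule. Ratios used transcript lengths of GENCODE v44 canonical transcripts, promoters and positions came from RefSeq GRCh38.p14, and Python 3.11.15 with pandas 2.3.3, numpy 2.4.6 and matplotlib 3.10.9 was used. The result of 1 gene that the rule names is not reported here, and MRC2 was not analysed here. Depth was between 14371858 and 24511786 counts per library, and intervals from counts cover counting error only.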

Additional observations from a re-analysis of the deposited data

Results flagged for a closer look

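SERPINE2 and SERPINB2 showed differences between the metastatic sub-populations in their change from Par, tested directly as BrM2 against LM2 in edgeR over 9 libraries. The log2 fold change of SERPINE2 against Par was 1.65 in LM2 and 0.61 in BrM2, a difference of -1.04 (adjusted p 0.0099), and the difference between BrM2 and LM2 had the same sign in all 3 replicate numbers. That of SERPINB2 was 2.31 in LM2 and 5.18 in BrM2, a difference of 2.86 (adjusted p 0.014), again with the same sign in all 3 replicate numbers. SERPINB2 passed the filter on low counts only through its BrM2 libraries, so that its sign in BrM2 against LM2 follows in part from the filter, and the call was lost without LM2 replicate 2, LM2 replicate 3 or BrM2 replicate 2. Par is shared by both contrasts and cancels in the difference. The groups of 3 libraries are too small for a test of single libraries standing apart.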

How the results depend on the processing

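Counts are given for LM2 against Par, BrM2 against Par and BrM2 against LM2 in that order, where line only gave 1, 1 and 2 members and 1125, 1721 and 1051 genes over the table. With the replicate block edgeR called 3, 7 and 6 members and 4487, 5551 and 4880 genes, DESeq2 with the replicate block 3, 7 and 6 members and 4589, 5565 and 4923 genes, and DESeq2 without it 2, 4 and 3 members and 1885, 2507 and 1812 genes. With no filter on low counts 2, 3 and 4 members and 1498, 2165 and 1446 of 34056 genes were called. With only the 6 libraries compared, 1, 3 and 2 members and 887, 1555 and 595 genes were called. Leaving out 1 library gave 1, 1 to 4 and 1 to 3 members, and 585 to 1252, 940 to 2104 and 540 to 1207 genes. The 4 members in BrM2 against Par were without LM2 replicate 1 (PLAUR, SERPINE2, SERPINB2 and SERPINI1). Without replicate 1 of all lines 2, 6 and 6 members and 4301, 5249 and 4240 genes were called, without replicate 2 of all lines 0, 0 and 0 members and 70, 158 and 53 genes, and without replicate 3 of all lines 0, 1 and 0 members and 136, 273 and 113 genes. In the same order of replicate numbers and with the block, which was added after seeing the data, the members were 2, 5 and 6, then 3, 6 and 5, then 3, 5 and 4, and the genes 3634, 4795 and 3715, then 4193, 5820 and 5357, then 2130, 2991 and 2053.

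Some uncalled log2 fold changes changed sign. In LM2 against Par the fits without 1 library gave PLAU between -0.047 and 0.59, PLAT between -0.41 and 0.091, and SERPINI1 between -0.13 and 0.85. PLAT was also 0.023 without replicate 2 of all lines, and 0.085 without replicate 3 (0.036 with the block), and SERPINI1 was -0.12 without replicate 3 (-0.15 with the block). In BrM2 against LM2 such fits gave L1CAM between -0.34 and 0.11 and MST1R between -0.016 and 0.23, and L1CAM was 0.044 without replicate 2 of all lines (0.067 with the block). RLE factors and filterByExpr left the members' counts at 1, 1 and 2. SERPINE2 in LM2 and SERPINB2 in BrM2 against Par were called in all 9 fits without 1 library. Without replicate 2 of all lines neither was called. The few counts of SERPINB2 and SERPINI1 in Par and LM2 limit their precision. The cause of these changes was not tested.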
